A study of Arabidopsis thaliana with 248 samples.

Results

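The mRNA of F1 plants between *suvh456* and *cmt23* was compared, gene by gene, with the midpoint of both parents. In *suvh456* the H3K9 methyltransferase genes *SUVH4*, *SUVH5*, and *SUVH6* are mutated, and in *cmt23* the DNA methyltransferase genes *CMT2* and *CMT3* are mutated. The label of sxc names *suvh456* first and that of cxs names *cmt23* first, so both F1 genotypes are heterozygous at all 5 loci and differ in which mutant is named as first parent. The labels of these plants name no *ldl2* mutation, so all are taken to carry functional *LDL2*, an H3K4 demethylase gene. All were harvested as whole 2-week-old seedlings. The comparison uses 12 of the 27 libraries of this RNA experiment and of 248 samples in the series, that is 3 libraries each of sxc, cxs, *suvh456*, and *cmt23*. The 3 wild-type (WT) libraries of the same experiment, which carry none of the mutations, are given as the reference for the silent state. The members are all 33602 genes of the count table, of which 3903 are transposable element (TE) genes and 27416 are protein-coding genes. Each F1 is a first-generation plant of 1 cross type, and the labels do not say how many parental plants were used.

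Transposons of plants are kept silent by a loop between a histone mark and a DNA mark. H3K9 methyltransferases of the SUVH4 group bind DNA methylated at non-CG sites (mCH) and dimethylate H3K9, and the chromomethylases CMT3 and CMT2 bind H3K9me2 and methylate CHG and CHH sites, respectively, where H is A, C, or T. Each parent lacks a different part of the loop, and the F1 receives a functional allele of every one of these genes from 1 parent together with chromosomes on which the loop had been broken in both. The question that the comparison answers is where the F1 lies between the parents, and whether it lies outside them.

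The 12 libraries held from 8448989 to 12942034 counts (median, 11116040), and between 24637 and 26874 genes had counts in each. Replicates of a genotype correlated with r from 0.975 to 0.993 on log2 CPM, where CPM are counts scaled by the TMM-adjusted size of their library. Of the 3903 TE genes, 1958 had more than 3 counts in the F1 or in the parental libraries and 1217 had none in either. All 279 chloroplast and mitochondrial genes were listed at 0 in every library. The summed markers of other organs overlapped between the groups, and their part in the results was not tested: 10 seed markers summed to 3.87 to 9.76 CPM in the F1 and 3.80 to 7.27 CPM in the parents, 5 flower markers to 2.96 to 4.51 and 1.75 to 4.08 CPM, and 3 root hair markers to 0.237 to 1.24 and 0.0942 to 1.29 CPM, with the seed gene *OLEO2* at 0 in all F1 libraries. The light-harvesting antenna genes, which mark green leaf tissue, were abundant in every library, from 37373 to 76224 CPM in the F1. WT replicate 3 had the highest sum of seed markers among these 15 libraries (17.9 CPM) and the highest TE gene share of the WT libraries. Because these are bulk samples, fewer cells that transcribe a gene and less RNA per cell cannot be told apart.

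The upstream sequences of 4 genes show the kind of loci at which the F1 fell below the parents or stayed at their midpoint. Each line is the 250 bases that end just before the annotated start of the gene, 5′ to 3′ on the strand of the gene, read from the TAIR10.1 genome with the start that RefSeq gives. Capitals mark CHG triplets on either strand, that is CAG, CTG, CCG, and CGG. CAG and CTG are reverse complements of each other, as are CCG and CGG, and overlapping triplets such as those within CCGG were each counted.
*SDC* (AT2G17690), chr2:7681912-7682161, plus strand: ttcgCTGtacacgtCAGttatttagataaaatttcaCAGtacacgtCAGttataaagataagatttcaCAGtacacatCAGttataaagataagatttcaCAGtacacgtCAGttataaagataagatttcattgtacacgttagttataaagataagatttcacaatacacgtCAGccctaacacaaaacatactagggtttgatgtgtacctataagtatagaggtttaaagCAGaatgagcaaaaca
AT2G34655, chr2:14596315-14596564, plus strand: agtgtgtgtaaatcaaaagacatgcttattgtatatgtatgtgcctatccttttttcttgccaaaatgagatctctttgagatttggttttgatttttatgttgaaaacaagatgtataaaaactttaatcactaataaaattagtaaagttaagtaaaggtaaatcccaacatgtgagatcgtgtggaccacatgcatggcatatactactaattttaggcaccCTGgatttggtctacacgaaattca
AT3G29648, chr3:11514686-11514935, plus strand: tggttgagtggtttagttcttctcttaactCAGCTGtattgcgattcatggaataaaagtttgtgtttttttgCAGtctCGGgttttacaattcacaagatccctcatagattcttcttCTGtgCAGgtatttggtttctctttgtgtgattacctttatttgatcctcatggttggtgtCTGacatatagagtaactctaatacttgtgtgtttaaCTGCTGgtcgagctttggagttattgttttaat
AT3G44215, chr3:15923691-15923940, minus strand: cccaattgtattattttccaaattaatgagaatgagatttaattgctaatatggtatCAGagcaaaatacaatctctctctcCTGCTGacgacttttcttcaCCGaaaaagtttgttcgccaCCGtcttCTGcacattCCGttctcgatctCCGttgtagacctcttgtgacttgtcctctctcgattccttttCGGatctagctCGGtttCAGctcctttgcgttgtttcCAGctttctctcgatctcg
None of these windows overlapped another annotated gene. *SDC* is an F-box gene that is known for being silenced by DNA methylation of tandem repeats in its promoter. In its window the word agttataaagataagatttcaca stood 3 times, beginning at bases 48, 80, and 144 of the printed sequence. The word was taken from this window, as the longest that stands there 3 times. The window of *SDC* had 10 CHG triplets, that of the TE gene AT3G29648 had 9, and that of the TE gene AT3G44215 had 12, whereas AT2G34655, a protein-coding gene of unknown function, had 1. A window of 250 bases had a median of 5 such triplets over 32819 genes, 6 over 3892 TE genes, and 8 over the TE genes that fell below the midpoint as over those that rose above it. At least 1 triplet was present in 97.8% of all windows, so its presence alone tells loci apart little.

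The F1 fell below the parental midpoint at far more TE genes than it rose above it. By edgeR's quasi-likelihood test against the midpoint on the log scale, with Benjamini-Hochberg adjustment over all genes, 203 genes were lower in the F1 (0.604% of the genes tested) and 38 were higher (0.113%). TE genes made up 155 of the lower genes, which is 3.97% of all TE genes, and 15 of the higher ones (0.384%). Of the protein-coding genes, 42 were lower (0.153%) and 21 were higher (0.0766%). The lower TE genes had a median log2 fold change of -4.17, and the lower protein-coding genes a median of -1.66.

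The genes that were lower in the F1 were nearly all genes with more mRNA in a parent than in WT, called released genes here. Of the 203, 193 had been called higher than WT in at least 1 parent and 130 in both. Over all genes, 2.09% were called higher than WT in *suvh456* and 2.32% in *cmt23*. The parental libraries serve in both comparisons, so this count describes the genes and is not separate evidence. In the F1, 32 of the 203 were still called higher than WT, as were 0.726% of all genes. Of the 38 higher genes, 24 had been called lower than WT in a parent, which was so for 17 of the 21 protein-coding genes and 6 of the 15 TE genes. Over all genes, 0.527% were called lower than WT in *suvh456* and 1.36% in *cmt23*. For 37 of the 203 the count comes from the antisense strand and is not that of the annotated transcript.

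The midpoint depends on the scale, which matters where the parents differ widely. Of 437 TE genes called higher than WT in a parent, 382 had the lower mean in *cmt23*, and an F1 in which each parental chromosome kept its own activity would lie at the arithmetic mean rather than at the mean of the logs. Tested against the arithmetic mean of the CPM (voom weights and a delta-method error), 489 genes were lower (1.46%) and 58 were higher (0.173%), including 383 and 11 TE genes. Of the 241 genes called on the log scale, 228 were also called against the arithmetic mean, and 234 kept their sign.

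A count that does not depend on the scale is that of genes called below, or above, both parents. There were 65 genes below both parents (0.193% of those tested), 59 of them TE genes and 6 protein-coding. Above both parents were 6 genes (0.0179%), namely the TE genes AT4G16870, AT5G34800, and AT5G34825, the pseudogene AT5G34795, and the protein-coding genes *XTH4* and *RLP19*. A further 17 genes lay between the parents with a call against each and *cmt23* as the lower parent (0.0506%), and 1 gene with *suvh456* as the lower parent (0.00298%). Taken by parent, 408 genes were lower in the F1 than in *suvh456* (1.21%) and 33 were higher (0.0982%), whereas 94 were lower than in *cmt23* (0.28%) and 46 were higher (0.137%). Leaving out *cmt23* replicate 2 brought the genes below both parents to 37, and leaving out any *cmt23* replicate brought those above both parents to 3. The 6 F1 libraries all lay below the 6 parental libraries at 215 genes (0.64%) and all above them at 88 genes (0.262%).

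The summed output of TE genes put the F1 next to the lower parent. TE genes took from 0.489% to 0.606% of the counts in the 6 F1 libraries, with a mean of 0.545% ± 0.0423 (SD, n = 6). The share was 1.0% to 1.07% in *suvh456* and 0.510% to 0.538% in *cmt23*, with a mean of 0.778% over both parents, and 0.235% to 0.400% in WT. Every F1 library was below every *suvh456* library and above every WT library, and the F1 libraries overlapped those of *cmt23*. The exact permutation test of 6 F1 against 6 parental libraries, two-sided, gave p = 0.145 (Benjamini-Hochberg adjusted over 4 comparisons, 0.193; smallest possible, 0.00216). The test pools the libraries of both parents, so the gap between *suvh456* and *cmt23* counts in its spread. In the same exact permutation test, leaving out *cmt23* replicate 2 gave p = 0.0411 and leaving out *cmt23* replicate 3 gave p = 0.0498. Leaving out a *cmt23* library also moves the parental mean toward *suvh456*, so these p values do not refer to the midpoint of both parents. Against *suvh456* alone the exact permutation p was 0.0119 (adjusted, 0.0238), the smallest that 6 against 3 libraries allow, and against WT it was the same. Against *cmt23* alone it was 0.452 (adjusted, 0.452), with a difference of 0.0203 percentage points. These 3 comparisons were added after the shares had been seen.

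**Figure D1:**
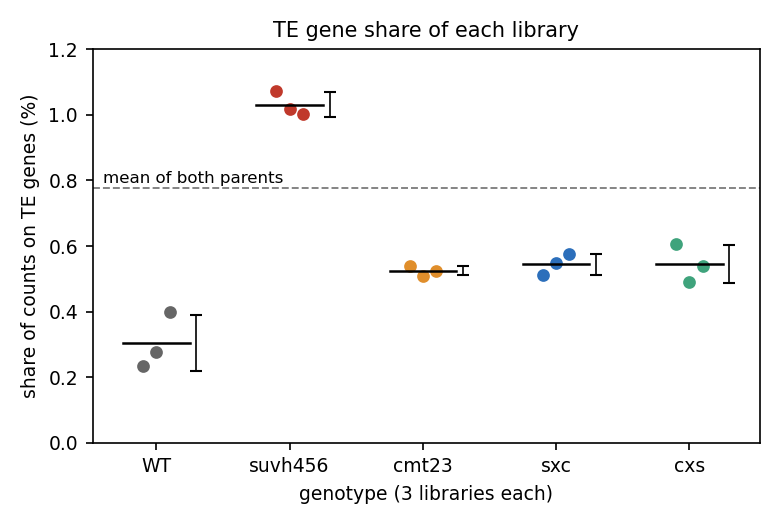
Share of all counts on the 3903 TE genes (%, y axis) in each library (points) of 5 genotypes, with the mean (bar) and SD (whisker) of 3 libraries and the mean of both parents (dashed line, 0.778%). All 6 F1 libraries sit between 0.489% and 0.606%, at the level of *cmt23* and below *suvh456*.

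At single TE genes the F1 covered the whole range from the silent state to the parental midpoint. There were 437 TE genes called higher than WT in at least 1 parent. For each, the retained share was taken as the rise of the F1 over WT divided by the rise of the arithmetic midpoint over WT, so that 0% is the WT level and 100% is the midpoint. The parental libraries both chose these genes and form the denominator, so the shares are a description, without a test. The median retained share was 14.2%, with quartiles of 3.12% and 62.3%. Of the 437 genes, 185 retained under 10%, 128 from 10% to 50%, 72 from 50% to 90%, 39 from 90% to 110%, and 13 over 110%. The F1 mean was under the arithmetic midpoint at 405 of them and under the lower parent at 293, by value and irrespective of a test. At 33 of them no F1 library had a count.

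**Figure D2:**
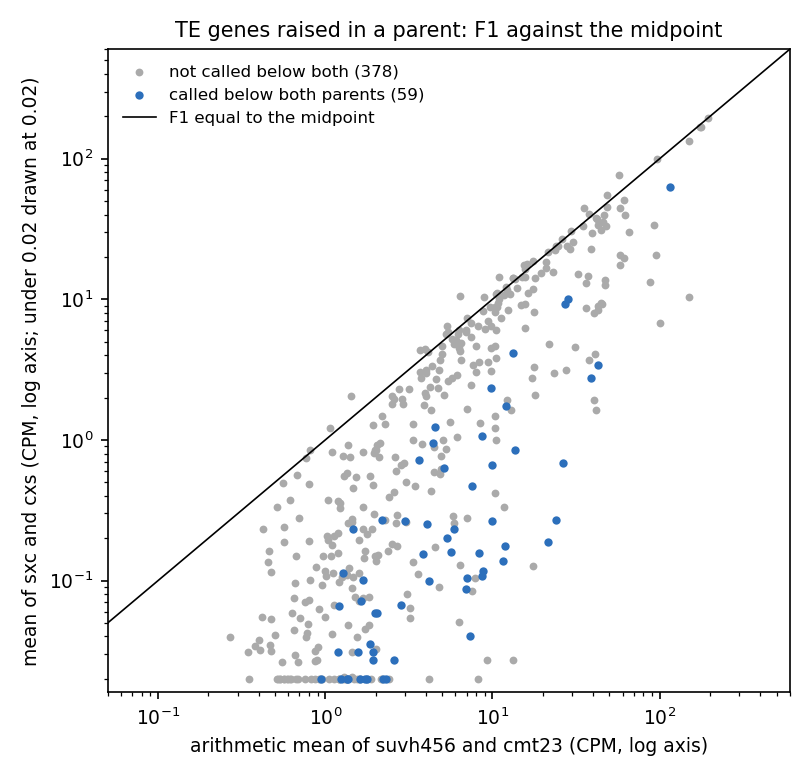
Mean CPM of the 6 F1 libraries (y axis, log) against the arithmetic mean of both parents (x axis, log) for the 437 TE genes called higher than WT in a parent, with the lowest F1 values drawn at the axis floor. Points lie under the line of equality at 405 genes, and blue points are the 59 genes called below both parents.

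Genes released in both parents spread more widely in retained share than those released in *suvh456* alone. The 223 TE genes called higher than WT in both *suvh456* and *cmt23* had a median of 45.7%, with 61 of them under 10% and 37 from 90% to 110%. The 207 TE genes called in *suvh456* alone had a median of 7.41%, and 120 of them were under 10%. Only 7 genes were called in *cmt23* alone, with a median of 7.24%. Even so, 94 of the 223 genes released in both parents were called lower than the midpoint, as were 54 of the 207 released in *suvh456* alone.

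The retained share differed with the position on the chromosome, again as a description. The middle of each chromosome's TE genes, which is their median position, was used as a stand-in for the pericentromere. The 201 released TE genes within 2 Mb of it had a median retained share of 7.91%, against 36% for the 160 genes from 2 to 5 Mb away and 36.7% for the 76 genes farther out. Called lower than the midpoint were 36.3%, 34.4%, and 28.9% of these genes, respectively. By gene length the medians were 12.2% (under 2 kb), 11.7% (2 to 4 kb), and 20.7% (over 4 kb). Genes counted on the annotated strand and on the antisense strand had medians of 14.3% and 12.6%.

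**Figure D3:**
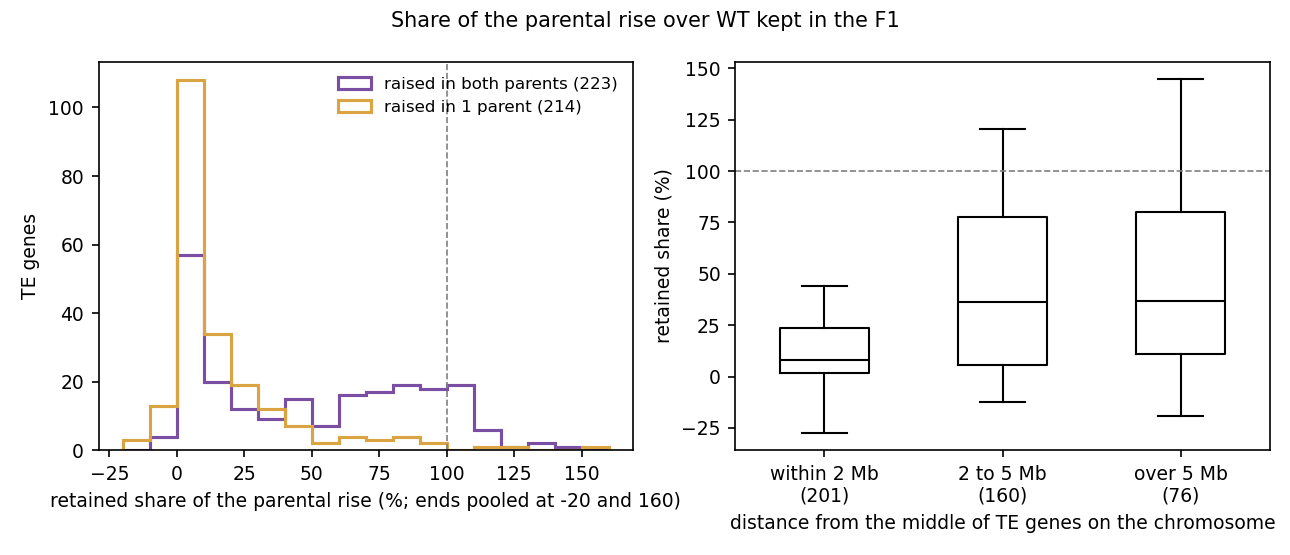
Left, number of TE genes (y axis) by retained share of the parental rise over WT (%, x axis) for the 223 genes raised in both parents and the 214 raised in 1 parent. Right, the same share by distance from the middle of the TE genes of the chromosome, with boxes from the first to the third quartile, medians of 7.91%, 36%, and 36.7%, and values beyond the whiskers not drawn.

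Among the TE genes with the deepest fall, the F1 was near or at the WT level. AT3G29648, a TE gene on chromosome 3 (11514936 to 11517766), had 21.2, 22.9, and 19.3 CPM in *suvh456* and 1.67, 2.93, and 2.91 CPM in *cmt23*. It had 0 in all 3 sxc libraries and 0.631, 0.104, and 0.322 CPM in cxs, and no counts in WT. Every F1 library was below every parental library, with a log2 fold change to the midpoint of -6.78 ± 0.47 (SE, adjusted p = 3.03e-08).

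Its neighbor AT3G29650 (11517826 to 11521441) behaved alike, from 38.5, 41.0, and 35.8 CPM in *suvh456* and 5.26, 4.25, and 3.98 CPM in *cmt23* to 0.267, 0, and 0 CPM in sxc and 0.552, 0.207, and 0.107 CPM in cxs. AT3G43640 on the same chromosome (15546872 to 15548354) had 16.1, 15.1, and 10.3 CPM in *suvh456* and 0.614, 1.13, and 0.970 CPM in *cmt23*, and 4 of the 6 F1 libraries had no counts of it. Both were called below both parents, with adjusted p of 7.06e-09 and 3.56e-07 against the midpoint.

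No count was found in any F1 library for AT1G42500 and AT3G30830, where the parents together had 157 and 159 counts. AT1G42500 had 1.85, 2.64, and 3.96 CPM in *suvh456* and 2.02, 2.55, and 0.776 CPM in *cmt23*, so here both parents transcribed the gene to a like degree. Against a floor of 3 counts over the 6 F1 libraries, the F1 was at least 48.4-fold lower than the arithmetic midpoint for AT1G42500 and at least 46.4-fold lower for AT3G30830, as a bound that covers counting error only. AT1G57640, with 20.3, 15.8, and 18.6 CPM in *suvh456*, was down to 2 counts in the 6 F1 libraries. It was barely transcribed in *cmt23* (0.175, 0.283, and 0.291 CPM), and the F1 was not called lower than *cmt23* (adjusted p = 0.385). The other 2 of the 8 TE genes with the largest fall, AT3G43862 and AT5G28545 (counted on its antisense strand), had 2 and 8 F1 counts against 186 and 821 in the parents.

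Other TE genes stayed at the midpoint with high levels. AT3G44215 (chromosome 3, 15919239 to 15923690) had 254, 250, and 280 CPM in *suvh456* and 115, 131, and 142 CPM in *cmt23*. In the F1 it had 167, 244, and 179 CPM in sxc and 222, 150, and 212 CPM in cxs, against 0.0943, 0, and 0 CPM in WT. All F1 libraries lay above all *cmt23* libraries and all below the *suvh456* libraries, and the F1 mean of 196 CPM was 100% of the arithmetic midpoint.

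The 5 TE genes with the highest F1 level among those called higher than WT and not called against the midpoint, AT3G44215 included, retained from 89.5% to 102% of the parental rise. AT3G46487 had 340, 313, and 333 CPM in *suvh456* and 39.0, 10.3, and 14.9 CPM in *cmt23*, and from 109 to 209 CPM in the F1. In 2 of the 20 fits tried it was called higher than the log midpoint. These were the DESeq2 Wald test (adjusted p = 0.0349) and edgeR's test without *cmt23* replicate 1 (adjusted p = 0.00499). AT1G49090 ran from 265 to 279 CPM in *suvh456* and from 13.7 to 57.7 CPM in *cmt23*, with 129, 155, and 208 CPM in sxc and 137, 28.5, and 150 CPM in cxs, so that 1 cxs library was far under the others. AT5G27925, counted on its antisense strand, had the same kind of single low library in sxc (105, 12.7, and 117 CPM) beside 110, 120, and 129 CPM in cxs. The fifth, AT3G28915, also counted antisense, was at a similar level in all 4 genotypes, from 153 to 208 CPM, and under 2 CPM in WT.

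Some genes with parents far apart lay above the midpoint of the logs and not above the arithmetic one. AT2G01840 had 83.1, 79.7, and 81.1 CPM in *suvh456*, 3.86, 3.87, and 4.66 CPM in *cmt23*, and from 29.3 to 38.4 CPM in the F1. It was called higher than the log midpoint (log2 fold change 0.87 ± 0.14, adjusted p = 0.00126) and was 78.4% of the arithmetic midpoint (log2 -0.36, adjusted p = 0.419). AT5G20750 had 15.4, 13.6, and 15.6 CPM in *suvh456* and no counts in *cmt23*, and its F1 libraries, from 5.96 to 7.41 CPM, had retained 91.5% of the rise. AT3G09170 was alike, with 9.85 to 13.7 CPM in *suvh456*, under 0.4 CPM in *cmt23*, and 3.58 to 7.30 CPM in the F1. The sign at these 3 genes turned with the arithmetic midpoint, at which AT5G20750 had a log2 difference of -0.13 and AT3G09170 of -0.15. AT2G01840 was named after its values had been seen.

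A few loci exceeded both parents. AT5G34800 (chromosome 5, 12971144 to 12973180) had 1.53, 0.466, and 0.754 CPM in *suvh456* and 0.790, 1.23, and 1.07 CPM in *cmt23*. It had 7.13, 11.6, and 10.1 CPM in sxc and 5.92, 10.2, and 8.91 CPM in cxs, and 3.11, 2.55, and 4.2 CPM in WT, so all F1 libraries lay above WT as well. The log2 fold change to the midpoint was 3.19 ± 0.26 (adjusted p = 3.03e-08). It stood in a run of 7 adjacent genes that were all called higher than the midpoint, from AT5G34790 to AT5G34830. The pseudogene AT5G34795 in that run had 3.68 to 6.42 CPM in the F1 and under 0.7 CPM in each parental library. The TE gene AT5G34825, counted antisense, had 0.644 to 3.21 CPM in the F1 and no parental counts. Such a run was the longest among higher genes. Among the lower genes, 50 of 203 had a called neighbor, in 23 runs of at most 4 genes.

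AT4G16870 (chromosome 4, 9483955 to 9488397) was lower in both parents than in WT. This TE gene was abundant in WT, with 136, 145, and 160 CPM, and had 0.161, 0.310, and 0.471 CPM in *suvh456* and 1.58, 1.23, and 0.679 CPM in *cmt23*. The F1 had 8.02, 7.92, and 17.7 CPM in sxc and 4.1, 28.2, and 17.0 CPM in cxs, all above the parents and all far below WT. The log2 fold change to the midpoint was 4.45 ± 0.57 (adjusted p = 4.60e-05). AT4G08100, counted antisense, was also lower in both parents than in WT, at a low level, with 2.07 to 2.67 CPM in WT, under 0.5 CPM in each parental library, and 0.988 to 3.63 CPM in the F1, which overlapped WT.

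**Figure D4:**
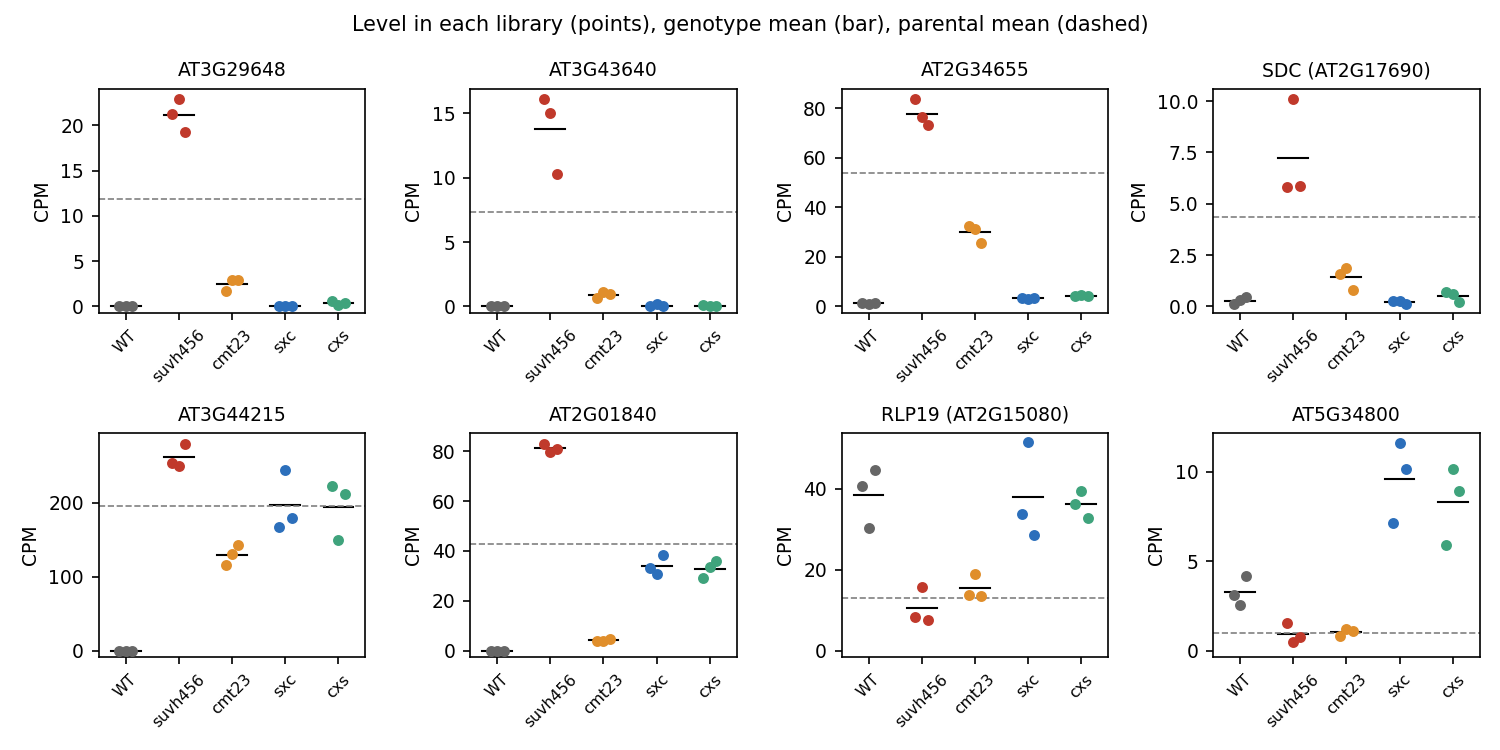
CPM (y axis, linear, a separate scale for each panel) of 8 genes in each library (points) of WT, *suvh456*, *cmt23*, sxc, and cxs, with the genotype mean (bar) and the arithmetic mean of both parents (dashed). AT3G29648, AT3G43640, AT2G34655, and *SDC* fell to the WT side of both parents, AT3G44215 and AT2G01840 lay between the parents, and *RLP19* and AT5G34800 lay above both.

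The TE genes that the study listed as LDL2-regulated were often below the midpoint. The list was drawn by the study from DNA methylation of the F1 plants of the same genotypes, with and without *ldl2*. Of its 194 members, 165 had over 3 counts in the F1 or in the parental libraries, 51 were lower than the midpoint (26.3%, against 3.97% of all TE genes) and 1 was higher. The median log2 ratio of the F1 to the arithmetic midpoint was -1.73 over those 165, -0.48 over the 1958 TE genes with such counts, and -0.01 over the 28763 such genes of all classes. Below both parents were 18 members (9.28%, against 1.51% of all TE genes), among them AT1G42500 and AT3G29648. The share of all TE genes includes many with few or no counts, which were rarer on the list. Among the released TE genes, 50 of the 96 list members (52.1%) and 100 of the 341 others (29.3%) were lower than the midpoint. These 96 list members retained a median of 13.1% and the 341 others a median of 14.6%, and no list member retained over 90%.

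Of the 14 TE genes that the study listed as ASHH3-regulated, from DNA methylation with and without *ashh3*, an H3K36 methyltransferase mutant, 4 were lower than the midpoint and AT3G09170 was higher, on the log scale only and in 12 of the 20 fits tried (adjusted p up to 0.124 when 1 library was left out). Among all TE genes, 3.97% were lower and 0.384% were higher. Over 3 counts were found for 13 of the 14 and for 1958 of the 3903 TE genes. AT5G43415, counted antisense, had 127, 125, and 139 CPM in *suvh456* and 54.0, 77.2, and 49.0 CPM in *cmt23*. In the F1 it had 9.80, 43.7, and 6.92 CPM in sxc and 33.2, 2.90, and 28.1 CPM in cxs, all below the parents. AT1G33580 spread from 5.37 to 23.5 CPM in the F1, against 17.8 to 76.6 CPM in the parents. In the fit of the 4 compared genotypes alone the calls of AT5G43415 (adjusted p = 0.0933) and AT1G33580 (0.0716) were lost, and that of AT1G33580 also without cxs replicate 2, cxs replicate 3, or *cmt23* replicate 3 (up to 0.0654). AT5G43800 had 0.445 to 2.79 CPM in the F1, 3.6 to 6.8 CPM in *cmt23*, and 15.3 to 24.9 CPM in *suvh456*, and was called below both parents. The study also shows certain TE genes as examples. AT2G45230 had 1.25 to 3.54 CPM in the F1 and 2.83 to 4.99 CPM in the parents (adjusted p = 0.0532), and was called lower in 7 of the 20 fits tried, among them the low-count filter (0.0358), the DESeq2 Wald test (0.00569), and the arithmetic midpoint (0.00792). AT5G47815 had 1.69 to 12.2 CPM in the F1 and 7.98 to 15.9 CPM in the parents (adjusted p = 0.631).

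Protein-coding genes silenced by methylation followed the TE genes in part. *SDC* had 5.79, 10.1, and 5.84 CPM in *suvh456* and 1.58, 1.89, and 0.776 CPM in *cmt23*, and 0.267, 0.245, and 0.123 CPM in sxc and 0.710, 0.622, and 0.215 CPM in cxs. It was called below both parents (log2 fold change to the midpoint -3.19 ± 0.36, adjusted p = 8.16e-06), and its F1 libraries overlapped those of WT (0.0943, 0.294, and 0.458 CPM). *QQS*, an orphan gene that regulates carbon and nitrogen allocation, stayed partly released, with 41.5 to 56.8 CPM in *suvh456*, 11.6 to 17.1 CPM in *cmt23*, and 14.1 to 26.5 CPM in the F1, against 1.86 to 2.17 CPM in WT. It was not called against the log midpoint (adjusted p = 0.412) and was lower than the arithmetic one (log2 -0.69, adjusted p = 0.0178), with 60.1% of the rise retained. *FWA*, which delays flowering when demethylated, and the COPIA93 retrotransposons *EVADE* and *ATTRAPE*, whose near-identical copies can share reads, had at most 0.43 CPM in every F1 library and no call. Their genotype means were as low in the parents (0.0292 to 0.314 CPM) and in WT (0.0835 to 0.109 CPM), so a return to silence cannot be seen at these loci.

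The protein-coding gene with the clearest fall was AT2G34655 (chromosome 2, 14596631 to 14597540). It had 83.7, 76.6, and 73.1 CPM in *suvh456*, 32.5, 31.5, and 25.6 CPM in *cmt23*, and 1.41, 0.882, and 1.3 CPM in WT. The F1 had 3.56, 2.86, and 3.21 CPM in sxc and 4.1, 4.46, and 4.08 CPM in cxs, so the groups did not overlap and the F1 had retained 4.78% of the rise (log2 fold change to the midpoint -3.71 ± 0.23, adjusted p = 3.70e-10). AT5G07570 and AT5G41830 were also called below both parents, at 0 to 0.327 and 0 to 0.322 CPM in the F1 against 2.09 to 16.1 and 1.32 to 12.9 CPM in the parents. AT3G28899 and AT3G29639 fell with 10 and 14 F1 counts left, against 214 and 158 in the parents.

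Further protein-coding genes are named here after their values had been seen. *SQN*, the cyclophilin 40 gene that acts in microRNA function and phase change, had 142, 131, and 116 CPM in *suvh456* and 14.4, 17.1, and 17.8 CPM in *cmt23*. The F1 had 9.09, 6.70, and 10.7 CPM in sxc and 15.3, 10.6, and 14.9 CPM in cxs, near the WT values of 7.63 to 8.67 CPM. Its log2 fold change to the midpoint was -2.08 ± 0.29 (adjusted p = 0.000116), and it was the first of 4 adjacent genes called lower, the other 3 being TE genes. *SQN* (6877774 to 6880898) overlaps the next of them, AT2G15800 (6880825 to 6882741). That TE gene had means of 187 CPM in *suvh456*, 15.4 CPM in *cmt23*, 3.32 CPM in sxc, and 10.2 CPM in cxs. Whether transcripts shared by the 2 genes add to the counts of *SQN* was not tested. *MRU1* and its neighbor AT5G35480 fell together, by 1.27 and 1.29 on the log2 scale, from 11.3 to 27.9 CPM for *MRU1* in the parents to 6.13 to 9.12 CPM in the F1. *TPS11*, a trehalose-phosphate synthase-like gene, had 70.3 to 120 CPM in the parents and 49.0 to 61.5 CPM in the F1 (adjusted p = 0.00716).

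Also lower, with calls that depended on single libraries, were *NAP* and *NAC6*, NAC transcription factor genes that promote leaf senescence. So was *CYP89A9*, a cytochrome P450 gene of chlorophyll breakdown. *NAP* had 4.46 to 10.003 CPM in the parents and 2.13 to 4.98 CPM in the F1, with groups that overlapped (adjusted p = 0.0214). *NAC6* had 4.59 to 13.3 CPM and 1.45 to 5.39 CPM (adjusted p = 0.0187). Leaving out 1 library at a time ended the calls of these 3 genes in some settings, with adjusted p up to 0.0956 for *NAP*, 0.1001 for *NAC6*, and 0.0687 for *CYP89A9*. The germin-like genes AT5G39130, AT5G39160, and *GER2*, which are related copies that may share reads, fell by 1.72, 1.09, and 1.08 on the log2 scale, with leave-one-out adjusted p up to 0.0777, 0.110, and 0.122.

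Of the 21 protein-coding genes that rose in the F1, 17 had been called lower than WT in a parent and 11 in both. *RLP19*, which encodes a receptor-like protein, had 8.21, 15.7, and 7.54 CPM in *suvh456* and 13.6, 19.0, and 13.6 CPM in *cmt23*. It had 33.8, 51.5, and 28.5 CPM in sxc and 36.1, 39.4, and 32.8 CPM in cxs, all above the parents and within or near the WT range of 30.4 to 44.5 CPM (log2 fold change to the midpoint 1.54 ± 0.21, adjusted p = 0.000124). *XTH4*, a xyloglucan endotransglucosylase gene of the cell wall, had 44.2 to 59.2 CPM in the parents, 52.5, 67.9, and 72.1 CPM in sxc, and 96.1, 78.9, and 88.7 CPM in cxs, against 85.8 to 117 CPM in WT (adjusted p = 0.00206). The range of sxc overlapped that of the parents and that of cxs did not. With this overlap *XTH4* falls outside the naming rule, and it was named after its values had been seen.

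AT1G23935 and AT5G35740 rose by 1.21 and 0.61 on the log2 scale, with F1 levels of 3.19 to 7.15 and 6.0 to 8.66 CPM against WT levels of 4.42 to 5.84 and 8.23 to 10.8 CPM. In the fit of the 4 compared genotypes alone their adjusted p was 0.0716 and 0.0516. *PRIN2*, a gene needed for plastid transcription, had 18.2 to 24.1 CPM in the parents, 25.5 to 29.9 CPM in sxc, and 31.6 to 33.6 CPM in cxs, against 36 to 36.4 CPM in WT (adjusted p = 0.0198, and up to 0.0822 when 1 library was left out). *NDL2* and AT3G48425 rose by 0.34 and 0.45 on the log2 scale, with leave-one-out adjusted p up to 0.162 and 0.175. Among genes named after their values had been seen, *BR6OX2*, a late enzyme of brassinosteroid synthesis, had 10.3 to 18.4 CPM in the parents and 17.0 to 28.3 CPM in the F1 (adjusted p = 0.00085). *NIK1*, a leucine-rich repeat receptor kinase gene, had 13.0 to 20.7 CPM and 19.4 to 26.3 CPM (adjusted p = 0.000857). *PDE312*, a gene of the plastid-encoded RNA polymerase complex, had 78.5 to 102 CPM and 98.4 to 122 CPM, a log2 fold change of 0.36 (adjusted p = 0.0463) whose adjusted p rose to 0.158 when 1 library was left out.

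**Figure D5:**
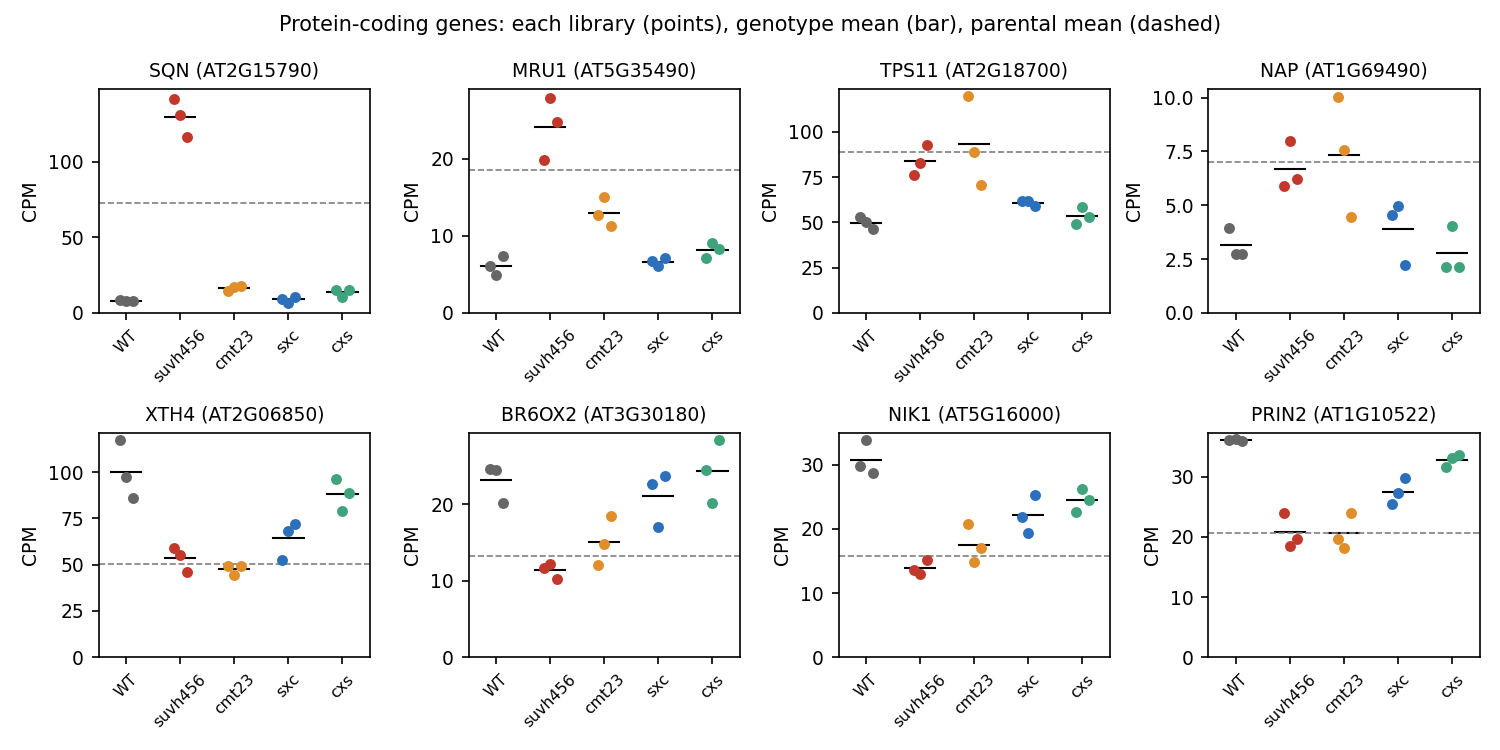
CPM (y axis, linear from 0, a separate scale for each panel) of 8 protein-coding genes in each library (points) of WT, *suvh456*, *cmt23*, sxc, and cxs, with the genotype mean (bar) and the arithmetic mean of both parents (dashed). *SQN*, *MRU1*, *TPS11*, and *NAP* were lower in the F1 than the midpoint, and *XTH4*, *BR6OX2*, *NIK1*, and *PRIN2* were higher.

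The mutated genes themselves were given by library first as a check of the labels. *SUVH4* had 3.49 to 3.96 CPM in *suvh456*, 10.2 to 15.1 CPM in *cmt23*, 7.02 to 8.91 CPM in the F1, and 13.3 to 14.3 CPM in WT. *CMT3* had 27.1 to 32.5 CPM in *suvh456*, 8.69 to 11.6 CPM in *cmt23*, 19.1 to 24.4 CPM in the F1, and 32.4 to 38.1 CPM in WT. At both genes the F1 lay between the parents with a call against each (adjusted p of 4.28e-05 and 0.0389 for *SUVH4*, and 0.0383 and 1.13e-05 for *CMT3*, against *suvh456* and *cmt23*, respectively). *SUVH5* had 0.466 to 1.85, 3.98 to 5.26, and 1.72 to 3.71 CPM in *suvh456*, *cmt23*, and the F1, in that order. The mRNA of *SUVH6* (15.4 to 23.7 CPM in the F1) and *CMT2* (26.8 to 42.5 CPM) was present in every genotype, at 19.7 to 33.8 CPM for *SUVH6* in *suvh456* and 23.3 to 29.4 CPM for *CMT2* in *cmt23*, so these 2 genes do not check the labels. By mean, *SUVH6* lay below both parents in the F1, with 15.9 CPM in sxc and 19.4 CPM in cxs against 24.7 CPM in *suvh456* and 21.3 CPM in *cmt23*. None of the 5 was called against the midpoint by edgeR's test, with adjusted p from 0.153 to 0.981. The unadjusted p of that test was under 0.05 for 3 of the 5, against 9.93% of all genes with over 3 counts.

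No gene was called among 31 genes of DNA and histone methylation control, 18 of RNA-directed DNA methylation, and 9 of post-transcriptional silencing, by edgeR's test over all genes. An unadjusted p under 0.05 was found for 1, 2, and 1 of them, against 9.93% of all genes with over 3 counts. The nearest to a call was *CLSY1*, which encodes a chromatin remodeler that acts with RNA polymerase IV. Its mean level was 14.3 CPM in *suvh456*, 13.6 CPM in *cmt23*, 20.1 CPM in sxc, 20.4 CPM in cxs, and 20.4 CPM in WT (log2 fold change to the midpoint 0.53 ± 0.13, adjusted p = 0.0607). *NRPD1*, the gene of the largest subunit of RNA polymerase IV, had a log2 difference of -0.43 ± 0.15 (adjusted p = 0.347). Both were named after their values had been seen. The H3K9 demethylase gene *IBM1*, whose full-length mRNA is known to need methylation within an intron, was at 10.6 to 18.1 CPM in the parents, 13.3 to 17.4 CPM in the F1, and 28.8 to 31.7 CPM in WT, so the F1 stayed at the parental level (log2 fold change to the midpoint 0.01 ± 0.10). *LDL2* (2.84 to 5.48 CPM in the F1) and *ASHH3* (17.1 to 19.8 CPM) had log2 differences of 0.01 ± 0.21 and 0.11 ± 0.08.

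Lists of environmental and developmental response gave no call either, by edgeR's test over all genes. These were defence (18 genes), heat shock (14), light-harvesting antenna (14), flavonoid and anthocyanin synthesis (15), the circadian clock (15), DNA damage response (12), flowering (12), and the 3 marker lists. Of the 18 defence genes, 17 lay under the log midpoint, with a median log2 fold change of -0.81, and 14 lay under the arithmetic midpoint, with a median log2 ratio of -0.46. The unadjusted p was under 0.05 for 6 of them. Of all 28763 genes with over 3 counts, 51.6% lay under the log midpoint and 9.93% had such a p. These counts pool both crosses. At *ICS1*, *PAD4*, *EDS1*, *PAD3*, *SARD1*, *FMO1*, and *ALD1* the sxc mean lay above both parental means and the cxs mean below both. *PAD4*, for one, had 27.4 CPM in sxc, 8.34 CPM in cxs, 18.8 CPM in *suvh456*, and 16.4 CPM in *cmt23*. At the other defence genes the sxc mean was not above both parental means. Summed over the 18 defence genes, the sxc libraries had 916, 1456, and 639 CPM and the cxs libraries 761, 651, and 631 CPM. The parental libraries had 824 to 1764 CPM. Thus sxc replicate 2 was the highest F1 library, and sxc replicate 3 lay within the range of cxs. No defence gene was called between the crosses. *PR1* and *PR2*, markers of salicylic acid defence, spread widely within genotypes. *PR1* had 80.6, 77.1, and 1.13 CPM in *suvh456*, 68.9, 23.4, and 5.92 CPM in *cmt23*, 10.2, 8.90, and 0.123 CPM in sxc, and 5.29, 0, and 0 CPM in cxs (adjusted p = 0.238). *PR2* had 344 CPM in *suvh456* replicate 2 and 132 CPM in sxc replicate 2, and from 0.617 to 88.3 CPM in the other F1 and parental libraries (adjusted p = 0.473). The DNA damage genes lay above the log midpoint in 11 of 12 cases, where 48.4% of all counted genes did, and 2 of the 12 had an unadjusted p under 0.05.

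Each cross direction was also compared with the midpoint by itself. Taken alone, sxc had 102 genes lower (0.304%) and 22 higher (0.0655%), and cxs had 87 lower (0.259%) and 31 higher (0.0923%). Of the 203 genes lower over both crosses, 71 were called in each cross by itself. The crosses share the parental libraries, so these calls are not independent. The DESeq2 Wald test gave 163 lower and 36 higher genes for sxc and 265 lower and 132 higher genes for cxs. Without cxs replicate 3, cxs had 51 lower and 13 higher genes. The higher genes of cxs numbered 18 without cxs replicate 1 or *suvh456* replicate 2, 19 without *cmt23* replicate 1, and 20 without *suvh456* replicate 3, and those of sxc 13 without sxc replicate 1 and 14 without *suvh456* replicate 1. The median retained share of the 437 released TE genes was 11.9% in sxc and 15.9% in cxs, and 244 of them had the lower mean in sxc. Compared with each other, the crosses differed at 1 gene (0.00298% of those tested), AT2G11410 (chromosome 2, 4543932 to 4547916). This TE gene had 29.3, 33.4, and 29.7 CPM in *suvh456*, 0.526, 0.567, and 0.776 CPM in *cmt23*, 1.6, 1.47, and 3.33 CPM in sxc, and 10.5, 9.74, and 11.1 CPM in cxs.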

How the data were processed

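Total RNA of whole 2-week-old seedlings was made into mRNA libraries with the KAPA mRNA HyperPrep Kit. The authors mapped reads to TAIR10 with STAR and deposited its counts per gene, unnormalized, and used the strand with the larger sum for a TE gene. The identifiers show that 7283 genes, 4528 of them protein-coding, were counted on the antisense strand. Libraries were grouped by their labels, and 12 count columns of the series that were not matched to these libraries were not used. Which alleles of *suvh5*, *suvh6*, *cmt2*, and *cmt3* were used is not given in the sources used here.

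The deposited counts were scaled by TMM and analyzed with R 4.3.3 and edgeR 4.0.16. All 9 genotypes with 3 libraries each were fitted together, without a filter, and each contrast was given a quasi-likelihood F test, with Benjamini-Hochberg adjustment over 33602 genes at 0.05. The midpoint of the main test is the mean of the log levels of both parents. The arithmetic midpoint was tested with voom in limma (version 3.58.1). CPM used TMM-scaled library sizes. Errors of fold changes are log2FC divided by the root of F. The TE gene share was compared by exact permutation tests. Every pair of replicates differed by more than sampling noise (the chi-square was at least 8.64 times its degrees of freedom) and was counted separately. Nothing says whether the replicates were grown apart, so p values measure the spread between these libraries only, and intervals and floors cover counting error only. The replicate numbers were not taken to pair the samples.

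Genes were named by a rule: the 8 TE genes with the largest fall and the 4 with the largest rise, the 6 protein-coding genes with the largest fall and the 6 with the largest rise, all with a mean of at least 1 CPM and an adjusted p under 0.05, and for the falling and the protein-coding genes no overlap of F1 and parental libraries. Also named were the 5 TE genes with the highest F1 level among those higher than WT and not called against the midpoint, the mutated genes, called list members (up to 4 a list), and genes that the study names. Other genes were named after their values had been seen. The members, lists, and this rule were chosen with earlier results of these data known. Positions follow the count table (TAIR10). The RefSeq annotation of TAIR10.1 held 32835 of 33602 genes, with identical start and end for 3895 of 3903 TE genes. Alternatives were RLE scaling, a low-count filter, a fit of the 4 compared genotypes alone, bias-adjusted quasi-dispersions, DESeq2 (version 1.42.0), a replicate block, the arithmetic midpoint, and leaving out each library. Leaving out cxs *ldl2* replicate 2, a library outside the comparison that stood apart, was chosen after seeing the data.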

Additional observations from a re-analysis of the deposited data

Results flagged for a closer look

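AT2G11410 is listed because the reciprocal crosses differed under the same comparison. Its level in cxs was higher than in sxc by 2.33 on the log2 scale, and it was the only 1 of 33602 genes called between the crosses by edgeR's quasi-likelihood test with Benjamini-Hochberg adjustment (adjusted p = 0.0161). All 3 cxs libraries (9.74 to 11.1 CPM) lay above all 3 sxc libraries (1.47 to 3.33 CPM). Over both crosses it was not called against the log midpoint and was lower than the arithmetic midpoint (log2 -1.34, adjusted p = 7.72e-06). What sets the crosses apart at this gene was not tested. Groups of 3 libraries are too small for a check of single outlying libraries.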

How the results depend on the processing

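All 241 genes called against the midpoint kept their sign in every alternative that fitted them, except that 234 of 241 did so with the arithmetic midpoint. The DESeq2 Wald test called all 241 and gave 332 lower and 119 higher genes, 66 genes higher than *suvh456*, 217 lower and 137 higher than *cmt23*, 163 lower and 36 higher for sxc, 265 lower and 132 higher for cxs, and 16 above both parents. The arithmetic midpoint gave 489 lower genes (383 TE genes) and 58 higher, 317 lower for sxc, and 310 lower and 53 higher for cxs. It turned the sign of AT2G01840 (-0.36), AT2G11410 (-1.34), AT3G09170 (-0.15), and AT5G20750 (-0.13). RLE scaling (233 of the 241 calls shared), the low-count filter (239), the fit of 4 genotypes (170), and bias-adjusted quasi-dispersions (200) moved no count by over 1.5 times.

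Leaving out 1 library at a time gave 150 to 246 genes lower than the midpoint and 26 to 53 higher, 116 to 172 TE genes lower and 11 to 17 higher, 37 to 79 genes below both parents and 3 to 7 above both, 303 to 465 lower and 20 to 41 higher than *suvh456*, 40 to 136 lower and 24 to 55 higher than *cmt23*, 69 to 115 lower and 13 to 22 higher for sxc, and 51 to 119 lower and 13 to 45 higher for cxs. Each of these highest counts was reached without cxs *ldl2* replicate 2, which lies outside the comparison and was chosen after seeing the data. For genes higher than *cmt23* and for both counts of sxc, leaving out a compared library reached the same value. Without 1 of the 12 compared libraries, at most 199 genes were lower than the midpoint and 39 higher, and at most 66 were below both parents. The F1 minus parental TE gene share was -0.287 to -0.174 percentage points, and passed the exact permutation test without *cmt23* replicate 2 (-0.287, p = 0.0411) and without *cmt23* replicate 3 (-0.284, p = 0.0498). Leaving out a library of 1 parent moves the parental mean toward the other parent, so those differences are not from the midpoint. The difference was -0.202 (exact permutation p = 0.0779) without the 10 most abundant TE genes, and unchanged over nuclear genes, since organellar genes are at 0.

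With the replicate number as a block, 202 genes were lower and 36 higher, and 225 of the 241 calls were shared. Libraries with the same number correlated with r from -0.264 to 0.588 in their deviations, over 0.1 in 6 of 18 pairs. Those with different numbers had r from -0.602 to 0.480, over 0.1 in 11 of 36 pairs, so the numbers were not taken to pair the samples. The highest values were those of sxc and *suvh456* for replicate 2 (0.588) and replicate 3 (0.584). Whether some libraries of the same number shared conditions was not tested. Of the named genes, AT3G48425 (adjusted p = 0.0646) and *PDE312* (AT3G48500, 0.0705) lost their call under the block, and 13 of 68 named genes did so in the fit of 4 genotypes. Low counts limit the precision at silenced TE genes, of which 1217 of 3903 had no count in the 12 libraries.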
